A study of Mus musculus with 8 samples.

Results

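The heat shock and cold-inducible genes described here are 10 of the 32285 genes in the feature table of 8 mouse kidney libraries, and 10 of its 21286 protein-coding genes. They were chosen by symbol, as genes whose transcripts are known to follow the daily rhythm of body temperature, by a rule that uses no measured value, though earlier results of these data were known when they were chosen. The 8 heat shock genes are Hspa1a, Hspa1b, Hsph1, Hsp90aa1, Hspa8, Dnajb1, Hspd1 and Hspe1, and the 2 cold-inducible genes are Cirbp and Rbm3. Each of them had UMIs in all 8 libraries, from 123 UMIs of Dnajb1 in the library poorest in it to 10690 UMIs of Hspa8 in the richest, and all 10 passed the filter on low counts in every contrast of all nuclei.

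The libraries hold single-nucleus RNA-seq of central cross-sections of kidneys, with cortex and medulla, from 8 male C57BL/6J mice, 2 for each combination of genotype and time point. Ctrl mice were Bmal1lox/lox, and their cKOt littermates were Bmal1lox/lox/Pax8-rtTA/LC-1, in which doxycycline induces Cre recombinase under the Pax8 promoter and so in renal tubules, while vessels, immune cells and interstitium keep the gene. Both genotypes drank doxycycline at 2 mg/ml for 2 weeks from 8 weeks of age and were killed at 14 weeks, so the control mice carry the lox alleles and the drug too. Tissue was taken at zeitgeber time (ZT) 4 or 16, with lights on at ZT0 and off at ZT12, so that ZT4 falls in the resting phase and ZT16 in the active phase of mice. The light schedules of the mice had been shifted so that all were killed at the same hour of the clock.

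Heat shock proteins are chaperones that hold, refold or hand on unfolded proteins, and their genes are switched on by heat shock factors, chiefly HSF1, which is released when unfolded protein takes up free chaperones. The HSP70 proteins work in a cycle driven by J-domain partners and by nucleotide exchange factors such as HSP110, and pass clients to HSP90. Cirbp and Rbm3 encode RNA-binding proteins whose transcripts rise when a cell is cooled by a few degrees, so that the rhythm of core temperature, which is high in the active phase of mice, is known to push both groups in opposite directions in the liver and other tissues.

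Promoter stretches of 5 members are shown because they hold the letters to which heat shock factors, or the mild-cold response, are known to be tied. The RefSeq table (GRCm38.p6) had promoters of 7 of the 10 members, 11 in all, each with 250 bases before and 50 after the start. Capitals mark the motif named with each.
Hspa1a, chr17:34972197-34972296, minus strand, heat shock element of 2 units (GAANNTTC or TTCNNGAA): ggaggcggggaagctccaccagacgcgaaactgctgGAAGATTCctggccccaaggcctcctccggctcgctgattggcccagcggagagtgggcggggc
Hspa1b, chr17:34959279-34959378, minus strand, the same element: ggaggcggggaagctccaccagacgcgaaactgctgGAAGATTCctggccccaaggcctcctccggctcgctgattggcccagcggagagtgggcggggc
Hsph1, chr5:149636347-149636416, minus strand, the same element: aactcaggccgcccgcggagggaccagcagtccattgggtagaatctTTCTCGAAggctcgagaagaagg
Hspe1, chr1:55088053-55088082, plus strand, heat shock element of 3 or more units, in the stretch it shares with Hspd1: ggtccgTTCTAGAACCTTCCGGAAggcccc
Cirbp, chr10:80167589-80167638, plus strand, the mild-cold motif TCCCCGCC: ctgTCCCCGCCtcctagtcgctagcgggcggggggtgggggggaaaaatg
The stretches of Hspa1a and Hspa1b were identical over all 100 bases printed and over 247 of the 250 bases before their starts (98.8%). The 2-unit element, searched on both strands, stood in 15.1% of the 32851 promoters of the table, and the 3-unit element GAANNTTCNNGAA or TTCNNGAANNTTC, which contains it, in 0.603%. The motif TCCCCGCC or its complement GGCGGGGA stood in 5.38% of promoters and also matched in those of Hspa1a, Hspa1b and Dnajb1, while the E-box CACGTG, the site of the clock protein BMAL1, stood in 7.15% and matched in those of Hspd1 and Hsph1. Neither of the 2 Dnajb1 promoters in the table held a heat shock element, 1 of the 2 of Hspd1 held none, and 1 of the 2 of Cirbp held no mild-cold motif. A match is a description of these letters and not a bound site, and its absence says only that the letters are not in this window. Hspa8 and Rbm3, on which the comparisons below turn most, are not in the table. In the GENCODE annotation of GRCm39, joined by Ensembl identifier and a different build from that of the promoters, Hspa8 (ENSMUSG00000015656) spans chr9:40711630-40731039 on the plus strand and Rbm3 (ENSMUSG00000031167) spans chrX:8004213-8012119 on the minus strand.

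Each library held 8758 to 10975 nuclei and 36548873 to 54500820 UMIs, of which 30119827 to 45245488 were on mRNAs, with medians of 3003.5 to 4830 UMIs per nucleus and 0.0153% to 0.0327% mitochondrial UMIs. Levels are given as counts per 1000000 mRNA UMIs (CPM) summed over all nuclei of a library and scaled by TMM, and they are compared between libraries and not between genes. One library stood apart for the genes described here: in replicate 1 of cKOt ZT4 the summed level of the 8 heat shock genes was 885 CPM, against 315 CPM in its replicate and at most 691 CPM in the other 6. The main results that rest on this library are given with and without it. Summed markers of adipocytes, whose place of origin was not tested, stood at 14.1 and 33.0 CPM in the cKOt ZT4 libraries and at 1.01 to 2.76 CPM in the other 6. The targeted gene Arntl (Bmal1) read 33.1 to 159 CPM in the Ctrl libraries and 201 to 296 CPM in the cKOt libraries, so every cKOt library was above every Ctrl library, and since no source used here says whether its 3′ tags lie in the deleted part, they do not check the labels by which the libraries are called. The study's methods say that loss of Bmal1 was checked by PCR on a second section of the kidneys.

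Hspa1a and Hspa1b encode the stress-inducible HSP70 proteins and lie near each other on chromosome 17. Hspa1a read 5.08 and 3.20 CPM at Ctrl ZT4, 25.2 and 5.55 CPM at cKOt ZT4, 5.48 and 9.24 CPM at Ctrl ZT16, and 7.74 and 7.11 CPM at cKOt ZT16 (replicates 1 and 2). One library at cKOt ZT4 was thus 4.53 times its replicate and 2.72 times the next highest library, and the other 7 lay at or below 9.24 CPM. Both Ctrl ZT16 libraries were above both Ctrl ZT4 libraries. Hspa1b read 13.3 and 5.75 CPM at Ctrl ZT4, 39.9 and 11.1 CPM at cKOt ZT4, 11.2 and 22.7 CPM at Ctrl ZT16, and 10.9 and 12.0 CPM at cKOt ZT16. The same cKOt ZT4 library was highest, and the time points overlapped in both genotypes. The coding sequences of these 2 paralogs are nearly identical, so the split of reads between them is uncertain.

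Hsph1 encodes HSP110, which exchanges the nucleotide of HSP70, and Dnajb1 encodes HSP40, the J-domain partner that delivers clients to it. Hsph1 read 77.8 and 53.8 CPM at Ctrl ZT4, 233 and 67.0 CPM at cKOt ZT4, 67.9 and 157 CPM at Ctrl ZT16, and 130 and 86.1 CPM at cKOt ZT16. The time points overlapped in both genotypes, and the high library at cKOt ZT4 was 3.49 times its replicate. Dnajb1 read 3.98 and 4.47 CPM at Ctrl ZT4, 20.4 and 3.09 CPM at cKOt ZT4, 6.33 and 8.97 CPM at Ctrl ZT16, and 11.4 and 6.37 CPM at cKOt ZT16. Here replicate 1 of cKOt ZT4 stood 6.62 times above replicate 2, the widest gap of the 10 genes between these replicates, while both Ctrl ZT16 libraries were above both Ctrl ZT4 libraries.

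Hsp90aa1 encodes the inducible cytosolic HSP90, and Hspa8 encodes HSC70, the HSP70 that cells make without stress and that also strips clathrin coats and feeds chaperone-mediated autophagy. Hsp90aa1 read 71.3 and 81.3 CPM at Ctrl ZT4, 226 and 71.2 CPM at cKOt ZT4, 117 and 151 CPM at Ctrl ZT16, and 138 and 94.8 CPM at cKOt ZT16. All 4 ZT16 libraries were above 3 of the 4 ZT4 libraries, and the remaining ZT4 library was the highest of all. Hspa8 read 100.4 and 90.8 CPM at Ctrl ZT4, 181 and 67.8 CPM at cKOt ZT4, 193 and 198 CPM at Ctrl ZT16, and 251 and 154 CPM at cKOt ZT16. It was the only heat shock gene whose highest library was at ZT16 (replicate 1 of cKOt). Its Ctrl groups did not overlap, whereas its cKOt groups did through replicate 1 of cKOt ZT4, which lay between the 2 cKOt ZT16 libraries.

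Hspd1 and Hspe1 encode the mitochondrial chaperonin HSP60 and its lid HSP10, and are read in opposite directions from a shared promoter on chromosome 1. Hspd1 read 58.1 and 62.7 CPM at Ctrl ZT4, 106 and 56.3 CPM at cKOt ZT4, 75.8 and 82.2 CPM at Ctrl ZT16, and 93.9 and 66.1 CPM at cKOt ZT16. Hspe1 read 31.1 and 36.3 CPM at Ctrl ZT4, 53.1 and 33.2 CPM at cKOt ZT4, 49.6 and 52.9 CPM at Ctrl ZT16, and 48.2 and 36.2 CPM at cKOt ZT16. Both had Ctrl ZT16 libraries above the Ctrl ZT4 libraries and cKOt groups that overlapped, and for Hspe1 the highest library, again replicate 1 of cKOt ZT4, was level with replicate 2 of Ctrl ZT16. The annotated spans of these 2 genes overlap on opposite strands, as do those of Hspd1 and Mob4, Hspa1a and Gm20481, and Hsph1 and Gm20005, and no source used here says whether strand was used in counting, so reads of such partners cannot be told apart if it was not.

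Cirbp and Rbm3, the cold-inducible genes, encode RNA-binding proteins that stabilize transcripts and keep translation going in the cold. Cirbp read 39.6 and 35.8 CPM at Ctrl ZT4, 27.4 and 44.0 CPM at cKOt ZT4, 32.7 and 20.4 CPM at Ctrl ZT16, and 26.4 and 29.4 CPM at cKOt ZT16. Both Ctrl ZT16 libraries were below both Ctrl ZT4 libraries, and in cKOt the groups overlapped because replicate 1 of cKOt ZT4 was as low as the ZT16 libraries. Rbm3 read 39.5 and 43.2 CPM at Ctrl ZT4, 43.9 and 48.8 CPM at cKOt ZT4, 59.8 and 50.2 CPM at Ctrl ZT16, and 56.0 and 56.6 CPM at cKOt ZT16. All 4 ZT16 libraries were above all 4 ZT4 libraries, so the 2 cold-inducible genes stood in opposite order between time points. The antisense gene Rbm3os overlaps Rbm3, and its reads cannot be told apart if strand was not used.

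**Figure D1:**
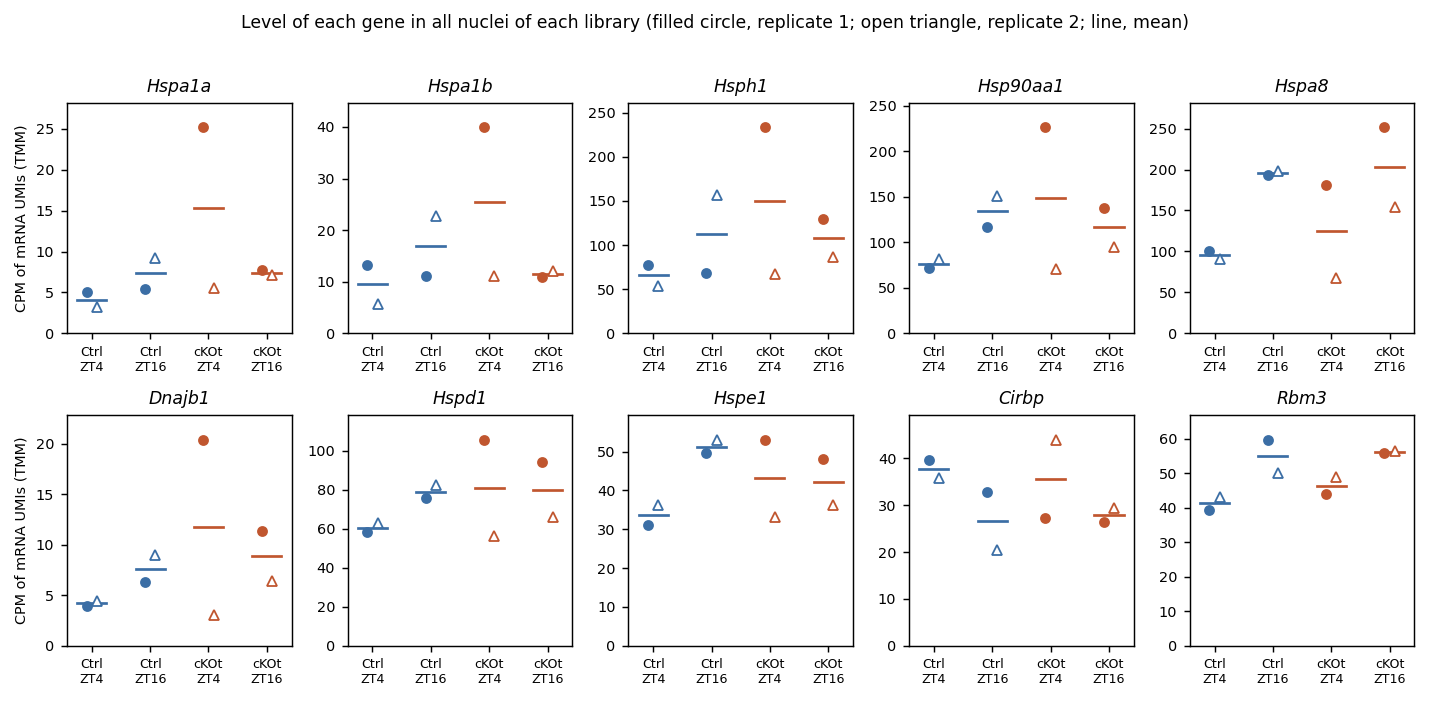
Level of each of the 10 genes in all nuclei of each library, as TMM-scaled counts per 1000000 mRNA UMIs on axes that start at 0, by genotype and time point (circle, replicate 1, triangle, replicate 2, line, mean of 2). Replicate 1 of cKOt ZT4 stands highest for 7 of the 8 heat shock genes, and Rbm3 is the gene whose 4 ZT16 libraries all lie above its 4 ZT4 libraries.

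The first comparison asks whether these transcripts differ between the resting and the active phase. None of the 10 genes passed an adjusted p of 0.05 between ZT16 and ZT4 in Ctrl by edgeR's quasi-likelihood test, against 0.142% of all mRNAs tested, and none did by DESeq2, which called 1.45%, while 3 (Hspa8, Hspe1 and Rbm3) had an unadjusted p under 0.05, as had 9.95% of all mRNAs. In cKOt none passed by either tool and none had an unadjusted p under 0.05 (8.32% of all mRNAs), where edgeR called 0% of all mRNAs and DESeq2 1.05%. Over both genotypes none passed by either tool, against 0.544% of all mRNAs by edgeR and 3.13% by DESeq2, and 3 (Hspa8, Rbm3 and Cirbp) had an unadjusted p under 0.05 (13.7% of all mRNAs). Rbm3 was 0.34 ± 0.09 higher at ZT16 on the log2 scale (adjusted p = 0.144), Hspa8 0.86 ± 0.28 higher (adjusted p = 0.218), and Cirbp stood at -0.43 ± 0.18 (adjusted p = 0.345), where ± gives an approximate SE from the fit over 4 libraries against 4. In Ctrl alone all 8 heat shock genes had a higher mean at ZT16, with log2 differences from 0.39 for Hspd1 to 1.03 for Hspa8 and a median of 0.82, against a median of -0.00318 over all mRNAs. In cKOt only Hspa8, at 0.70 ± 0.39, had a higher mean at ZT16, and the median of the 8 was -0.38, against -0.0094 over all mRNAs.

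The groups can also be compared by whether their libraries overlap. In Ctrl 7 of the 10 genes (Hspa1a, Hsp90aa1, Hspa8, Dnajb1, Hspd1, Hspe1 and Rbm3) had both ZT16 libraries above both ZT4 libraries, as had 20.0% of all mRNAs tested. In cKOt only Rbm3 had, against 17.3% of all mRNAs. Rbm3 was also the only gene of the 10 with all 4 ZT16 libraries above all 4 ZT4 libraries (3.25% of all mRNAs), and none had all 4 ZT16 libraries below (4.50%). Without replicate 1 of cKOt ZT4, the 4 ZT16 libraries were above the remaining 3 ZT4 libraries for 5 genes, Hsp90aa1, Hspa8, Dnajb1, Hspd1 and Rbm3, against 7.74% of all mRNAs.

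That library was left out because these same genes read high in it, a choice that by itself lifts their ZT16 over ZT4 values, so the p-values without it are given as a description and not as support for a rise. Without it, Hspa8 alone of the 10 had an adjusted p under 0.05 over both genotypes, at 1.31 ± 0.17 on the log2 scale (edgeR, adjusted p = 0.0317, 1.00% of all mRNAs called). The values of all 8 heat shock genes then lay above 0, from 0.44 for Hspa1b to 1.31, with Dnajb1 at 1.19 ± 0.25 (adjusted p = 0.0768) and Hsp90aa1 at 0.76 ± 0.16 (adjusted p = 0.0775), and Cirbp stood at -0.58 ± 0.16 (adjusted p = 0.136). The median of the 8 was 0.68, against 0.00233 over all mRNAs and 0.20 with all libraries. The lone cKOt ZT4 library is in this fit assumed to vary like the other groups. Since body temperature, feeding and activity all differ between these time points, their parts cannot be told apart, and whether less RNA per cell or fewer cells of a type lie behind a lower level cannot be told apart either in sums over all nuclei.

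**Figure D2:**
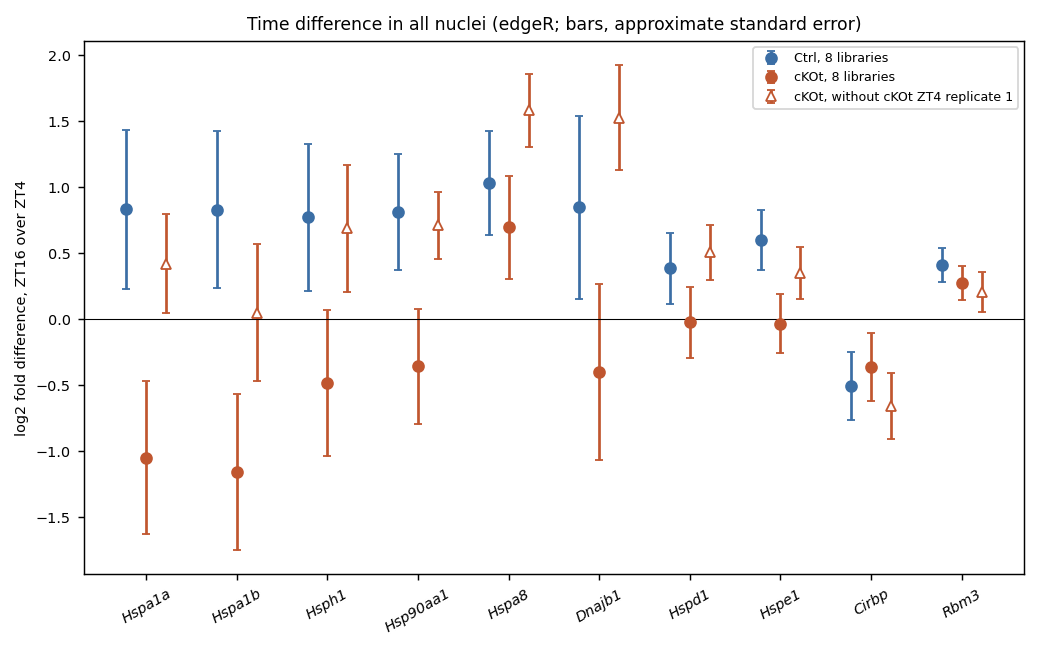
Log2 fold difference of ZT16 over ZT4 (y axis) for each gene (x axis) in all nuclei within Ctrl, within cKOt, and within cKOt without replicate 1 of cKOt ZT4 (open triangles), by edgeR, with bars for the approximate SE. The heat shock genes lie above 0 in Ctrl, from 0.39 to 1.03, and in cKOt 7 of the 8 lie below 0 with all libraries and none without that replicate, whereas Rbm3 lies above and Cirbp below 0 in all 3 fits.

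The second comparison asks whether loss of Bmal1 in tubules changes these transcripts, and whether it changes their daily difference. None of the 10 genes differed between cKOt and Ctrl at ZT4 by edgeR (0.446% of all mRNAs called) or DESeq2 (2.13%), and 2, Hspa1a and Hspa1b, had an unadjusted p under 0.05 (8.87% of all mRNAs). None differed at ZT16 by either tool (0.174% by edgeR, 1.06% by DESeq2), with none at an unadjusted p under 0.05 (6.10% of all mRNAs), and none over both time points (0.948% and 2.63%), with 1, Hspa1a, under it (10.0%). At ZT4 all 8 heat shock genes had a higher mean in cKOt, from 0.35 for Hspe1 to 1.90 ± 0.61 for Hspa1a (edgeR, adjusted p = 0.319) on the log2 scale. With replicate 1 left out 3 of the 8 lay above 0, with a median of -0.07. Hspa1a then stood at 0.43 ± 0.37, Hspa8 at -0.50 ± 0.26, Dnajb1 at -0.46 and Hsp90aa1 at -0.11. With replicate 2 left out instead, Hspa1a (2.62, adjusted p = 0.0331), Dnajb1 (2.27, adjusted p = 0.0478) and Hsp90aa1 (1.57, adjusted p = 0.0478) passed at ZT4 by edgeR (0.430% of all mRNAs called), and Hspa1a passed over both time points (1.32, adjusted p = 0.0498, 0.967%), so that these calls depend on which of the 2 mice is kept. At ZT16 the 10 differences lay between -0.56 (Hspa1b) and 0.22 (Dnajb1).

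The daily difference itself was not shown to differ between genotypes for any of the 10 genes (edgeR interaction term, 0.0183% of all mRNAs called, and none by DESeq2, which called 0.294%), and 1, Hspa1b, at -1.99 ± 0.84 on the log2 scale, had an unadjusted p under 0.05 (4.35% of all mRNAs). All 8 heat shock genes had a negative interaction, a smaller rise or larger fall of the mean from ZT4 to ZT16 in cKOt, from -0.33 for Hspa8 to -1.99 for Hspa1b. Without replicate 1 of cKOt ZT4, Dnajb1 (0.68), Hspa8 (0.55) and Hspd1 (0.12) were positive and the others lay between -0.08 and -0.78, none of them called.

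Replicate 1 of cKOt ZT4 was described further, since it decides these values. It was singled out because the heat shock genes read high in it, so counts of these genes highest in it are a description. It was the highest of the 8 libraries for 7 of the 10 genes, against 16.4% of all mRNAs tested, and the median log2 ratio to its replicate was 1.73 for the 8 heat shock genes, -0.41 for the cold-inducible genes and -0.00664 for all mRNAs. Of the listed chaperones outside the endoplasmic reticulum, 26 of 49 were highest in it, with a median log2 ratio to its replicate of 0.39: 7 of 9 genes of the list of HSP90B and HSP90 co-chaperones and 6 of 8 subunits of the cytosolic chaperonin TRiC, 6 of 13 other HSP70, HSP110 and J-domain proteins, 3 of 7 mitochondrial chaperones and proteases, 2 of 4 nucleotide exchange factors, 1 of 3 heat shock factors and 1 of 5 small heat shock proteins, with Hsp90ab1, the constitutive HSP90, at 325 CPM against 111 CPM in the replicate. None of 13 endoplasmic reticulum chaperones and 1 of 10 immediate early genes, which mark handling and stimulation of tissue, were highest in it. Its summed immediate early genes, at 380 CPM, lay within the range of the other libraries (145 to 444 CPM) but above the 204 CPM of its replicate, with a median log2 ratio of 0.84 over the 10 genes, and their part in the result was not tested. Also within the range of the others were its mitochondrial share, its median of 3344.5 UMIs per nucleus and its share of doublets (5.15% against 4.98% to 5.95%). What sets this mouse or library apart was not tested.

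Nuclei were then grouped by marker genes into 18 classes, of which 17 were compared, after clustering without the 10 genes, the other listed chaperones and the immediate early genes. Each class is named for the cells its markers fit: proximal tubule (PT), thin limbs, thick ascending limb (TAL), macula densa (MD), distal convoluted tubule (DCT1, DCT2), connecting tubule (CNT), principal cells of the collecting duct (CD), alpha and beta intercalated cells (aIC, bIC), urothelium (UT), vasculature (Vasc), mesangium and pericytes (Mes/Per), smooth muscle and juxtaglomerular cells (SMC/JGC), podocytes (Podo), myeloid cells (Myel) and lymphocytes (Lymph). The 18th, adipocytes, held 62 nuclei, of which 20 and 35 came from the cKOt ZT4 libraries. The 4160 unnamed nuclei, which are in no class, were uneven over libraries. They numbered 816 in replicate 1 of cKOt ZT4, 808 and 882 in the cKOt ZT16 libraries, and 285 to 397 in the others. The largest unnamed cluster (1775 nuclei) scored highest as PT and took 31.2% of its nuclei from replicate 1 of cKOt ZT4. The classes compared held 181 (MD) to 24433 (PT) nuclei, and levels within a class are counts per 1000000 mRNA UMIs of its nuclei (CPM, without TMM). Of the PT clusters, 5 took over 50% of their nuclei from 1 library. These were cluster 30 with 98.7% from replicate 2 of cKOt ZT4 and cluster 25 with 86.5% from replicate 1 of Ctrl ZT16. Cluster 23 took 84.6% from replicate 2 of Ctrl ZT16. Clusters 15 and 6 took 53.0% and 50.6% from replicates 2 and 1 of Ctrl ZT4. PT nuclei thus clustered in part by library. Whether they differ in kind of cell or only in expression between libraries was not tested.

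The high level of the heat shock genes in replicate 1 of cKOt ZT4 was seen in both tubular and other classes. The library was singled out for these high values, and its classes come from the same mouse and share its free RNA. The counts below are thus a description. It was the highest library in 69 of the 136 pairs of a heat shock gene and a class and in 1 of 34 pairs of a cold-inducible gene and a class, against 14.8% of all gene and class pairs. Hsph1 was highest in it in 15 of 17 classes, Hspa1a, Hspa1b and Dnajb1 in 12 each, Hsp90aa1 in 9, Hspd1 in 6, Hspe1 in 3 and Hspa8 in none. In Vasc, which is outside the reach of the Cre transgene, Hspa1a read 50.6 CPM in it against 2.12 to 24.4 in the other libraries, and in PT 15.8 against 0.869 to 3.64. In the thin limbs Hspa1a read 38.0 against 24.6 to 35.0, a smaller gap.

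**Figure D3:**
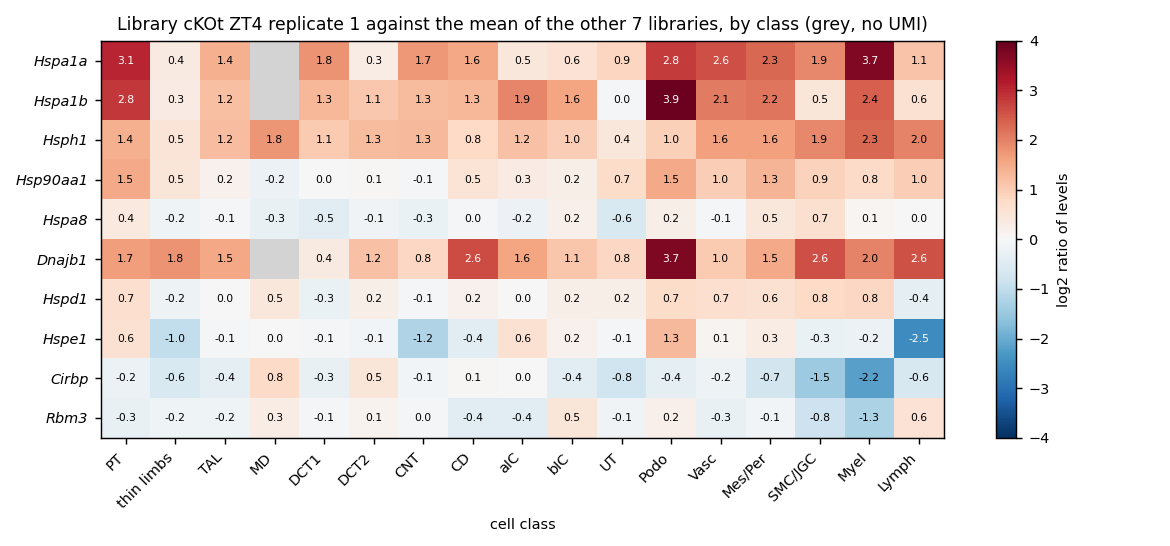
Log2 ratio of the level in replicate 1 of cKOt ZT4 to the mean of the other 7 libraries for each gene (rows) and class (columns), with grey where the library had no UMI. Hspa1a, Hspa1b, Hsph1 and Dnajb1 are above 1 in ratio in 15 to 17 of the 17 classes, with medians of 2.40 to 2.94, whereas Hspa8, Cirbp and Rbm3 have medians of 0.783 to 0.958.

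The classes differed most in their levels of Hspa1a, Hspa1b and Hsph1. Hspa1a was highest in UT (31.8 ± 14.0 CPM, SD, n = 8 libraries), CD (31.7 ± 18.9) and thin limbs (30.6 ± 4.60), against 3.64 ± 5.01 in PT (1.90 without replicate 1 of cKOt ZT4) and 2.55 in DCT2 (19 UMIs), while the lowest class, MD, rests on 1 UMI. These 3 means were, without replicate 1 of cKOt ZT4, 28.8 in UT, 25.5 in CD and 29.5 in thin limbs, which were then the first. Hspa1b followed the same 3 classes, with 114 ± 70.7 in UT, 74.6 ± 15.7 in thin limbs and 65.3 ± 34.5 in CD against 6.30 ± 7.98 in PT (3.57 without that library). The thin limbs and much of the collecting duct lie in the medulla, and the urothelium lines the renal pelvis. Hsph1 was highest in thin limbs (301 ± 65.0), then CD (191 ± 80.6) and UT (189 ± 130), and Hsp90aa1 in thin limbs (236 ± 40.4), UT (167 ± 103) and CD (153 ± 39.3), with ranges of 7.29 and 3.26 times between the highest and the lowest class. Leaving that library out turned the order of CD (175 CPM) and UT (181 CPM) for Hsph1. For Hsph1 the thin limbs exceeded CD in all 8 libraries, with an exact two-sided sign-flip permutation p of 0.00781, the smallest that 8 libraries can give, and 0.125 after adjustment over the 16 neighbours.

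The constitutive and mitochondrial genes were more even over classes than Hspa1a, Hspa1b and Hsph1, though the range of Hspa8 was close to the 3.26 times of Hsp90aa1. Hspa8 was highest in Vasc (227 ± 89.9), then PT (169 ± 73.4), and lowest in DCT2 (72.3 ± 29.9), a range of 3.14 times. Hspd1 ranged 1.95 times, from 86.6 ± 29.2 in MD and 82.5 ± 24.2 in PT to 44.3 ± 14.5 in Podo (without that library UT, at 79.6, came before PT, at 76.8), and Hspe1 2.47 times, from 54.1 ± 15.9 in SMC/JGC to 21.9 ± 12.9 in Podo. Dnajb1 was highest in UT (16.9 ± 12.6) and lowest in Podo (4.34 ± 7.68, or 1.72 without replicate 1 of cKOt ZT4), where it rests on 8 UMIs in all libraries. Of the cold-inducible genes, Cirbp was highest in UT (55.6 ± 16.3) and lowest in PT (26.7 ± 7.07), and Rbm3 was highest in MD (143 ± 59.8, on 83 UMIs), followed by DCT1 (75.3 ± 11.1) and TAL (73.5 ± 16.5), the segments next to the macula densa, and lowest in Podo (31.9 ± 8.90), a range of 4.47 times. In none of the 10 genes did any of the 16 pairs of neighbours in the order differ after adjustment, and since one pair alone cannot pass in this test, the order of neighbours is a description. Free RNA in droplets gives all classes a share of the kidney's abundant transcripts, so low levels, such as Hspa1a in PT, need not be expression in those cells.

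**Figure D4:**
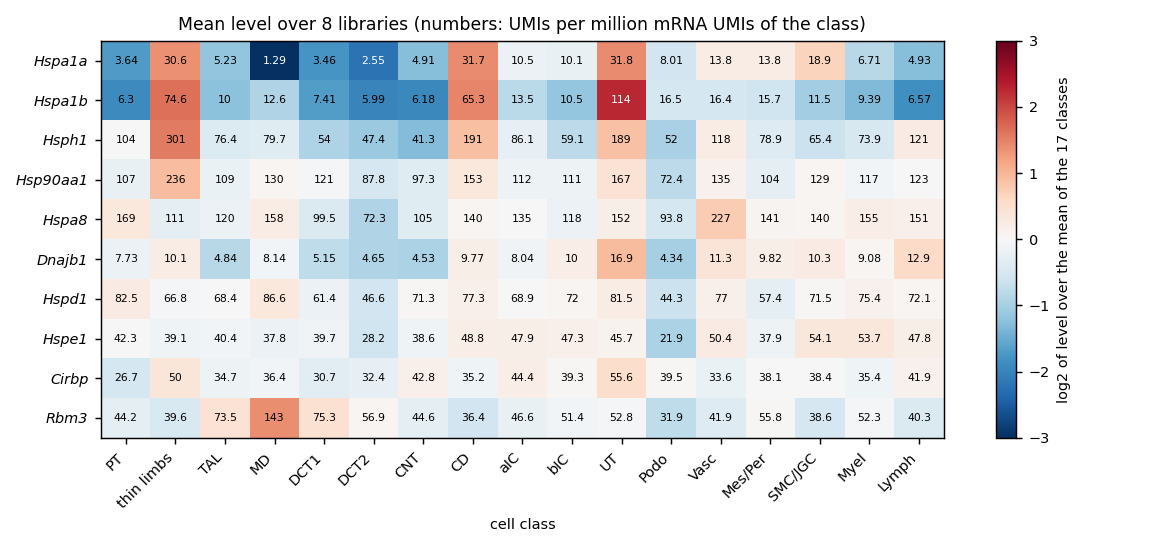
Mean level of each gene (rows) in each class (columns) over 8 libraries, printed as counts per 1000000 mRNA UMIs of the class and coloured by the log2 ratio to the gene's mean over the 17 classes. Thin limbs, CD and UT stand out for Hspa1a, Hspa1b, Hsph1 and Hsp90aa1, Vasc for Hspa8 and MD for Rbm3.

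Between time points, Hspa8 rose at ZT16 in 7 classes and was above 0 in all 17, though it was not called in all nuclei. The classes come from the same mice and share their free RNA, so they are not independent. The share of all mRNAs with the same sign in every class is not given, nor is the share without overlap of the time points within a class. Absence of overlap is described below for pairs that were called, so it is no further support for them. Over both genotypes, 9 of the 146 pairs of gene and class that could be tested passed an adjusted p of 0.05 by edgeR, all of them higher at ZT16, against 0.890% of all gene and class pairs, and DESeq2 called 7, against 0.856%. They were Hspa8 in UT, DCT1, CNT, DCT2, Vasc, TAL and aIC, Rbm3 in TAL and Hspd1 in DCT1. In Vasc, Hspa8 read 122 and 140 CPM at Ctrl ZT4, 216 and 127 at cKOt ZT4, 287 and 298 at Ctrl ZT16, and 359 and 270 at cKOt ZT16. All 4 ZT16 libraries were above all 4 ZT4 libraries, and the rise was 1.03 ± 0.15 on the log2 scale (edgeR, adjusted p = 0.00334, 1.79% of mRNAs called in Vasc). In DCT1, the segment of the thiazide-sensitive sodium chloride transporter, Hspa8 read 55.7 and 72.2 CPM at Ctrl ZT4, 75.0 and 39.8 at cKOt ZT4, 171 and 147 at Ctrl ZT16, and 136 and 99.6 at cKOt ZT16. The groups did not overlap here either, although replicate 1 of cKOt ZT4 was the highest of the ZT4 libraries (1.17 ± 0.17, edgeR, adjusted p = 0.000913, 2.10% of mRNAs called in DCT1).

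The rise of Hspa8 was 1.08 ± 0.18 in CNT (edgeR, adjusted p = 0.000819), 1.04 ± 0.19 in DCT2, 0.94 ± 0.18 in TAL, 0.89 ± 0.20 in aIC and 1.47 ± 0.22 in UT on the log2 scale. In PT, the class with the most nuclei, it stood at 0.82 ± 0.34 with an adjusted p of 0.340 by edgeR (0.467% of mRNAs called). There Hspa8 read 213 CPM in replicate 1 of cKOt ZT4, 64.4 to 128 in the other ZT4 libraries and 158 to 282 at ZT16. Within Ctrl alone, Hspa8 rose in 5 classes (Vasc, TAL, DCT1, DCT2 and CNT) and Rbm3 in TAL, 6 of 141 pairs against 0.313% of all pairs. Within cKOt none of 142 pairs passed by edgeR against 0.166%, with 22 at an unadjusted p under 0.05 (7.17% of all pairs), though Hspa8 lay above 0 in all 17 classes there too, between 0.42 and 1.54. Without replicate 1 of cKOt ZT4, left out for its high values of these genes, 5 of 144 pairs had an adjusted p under 0.05 within cKOt by edgeR (0.183% of all pairs), all of them Hspa8, in Vasc, Mes/Per, TAL, DCT1 and CNT.

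Rbm3 in TAL, the segment of the furosemide-sensitive transporter, read 49.0 and 55.7 CPM at Ctrl ZT4, 66.2 and 65.0 at cKOt ZT4, 91.7 and 85.0 at Ctrl ZT16, and 87.3 and 88.0 at cKOt ZT16. All ZT16 libraries were above all ZT4 libraries, with a rise of 0.59 ± 0.10 on the log2 scale (edgeR, adjusted p = 0.00266, 3.60% of mRNAs called in TAL). Hspd1 in DCT1 read 48.8 and 53.0 CPM at Ctrl ZT4, 52.1 and 42.5 at cKOt ZT4, 86.6 and 76.3 at Ctrl ZT16, and 66.7 and 65.5 at cKOt ZT16. The time points did not overlap, and the rise was 0.59 ± 0.15 (edgeR, adjusted p = 0.0494), close to the limit. The shares of all mRNAs of TAL and of DCT1 without overlap are not given. Cirbp lay below 0 in all 16 classes tested, from -0.68 ± 0.18 in Vasc (edgeR, adjusted p = 0.0848) to -0.14 in SMC/JGC, and passed in none. Of the inducible genes, Hsp90aa1 was above 0 in 15 of 17 classes, Hsph1 in 14 of 17, Dnajb1 in 5 of 8, Hspa1a in 6 of 10 and Hspa1b in 5 of 12, none of them called.

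Without replicate 1 of cKOt ZT4, 18 of 147 pairs had an adjusted p under 0.05 over both genotypes by edgeR, 17 of them higher at ZT16, against 1.07% of all pairs, and since its high values of these genes were the reason to leave it out, these too are a description. They were Hspa8 in 10 classes, PT (1.39 ± 0.22, adjusted p = 0.0285), Mes/Per, bIC and Myel among them but not UT (adjusted p = 0.113), Hsp90aa1 in PT and Vasc, Hsph1 in DCT1 and DCT2, Dnajb1 in Mes/Per, Hspd1 in DCT1 and Rbm3 in TAL as before, and Cirbp, lower at ZT16, in Vasc (-0.82, adjusted p = 0.0253). Without replicate 2 of cKOt ZT4, Hspa8 in aIC and UT and Hspd1 in DCT1 were no longer called, and 6 pairs passed, against 0.488% of all pairs. Without replicate 1 of cKOt ZT16, 5 pairs passed, against 0.343%, and Hspa8 in TAL was not among them (adjusted p = 0.0524).

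**Figure D5:**
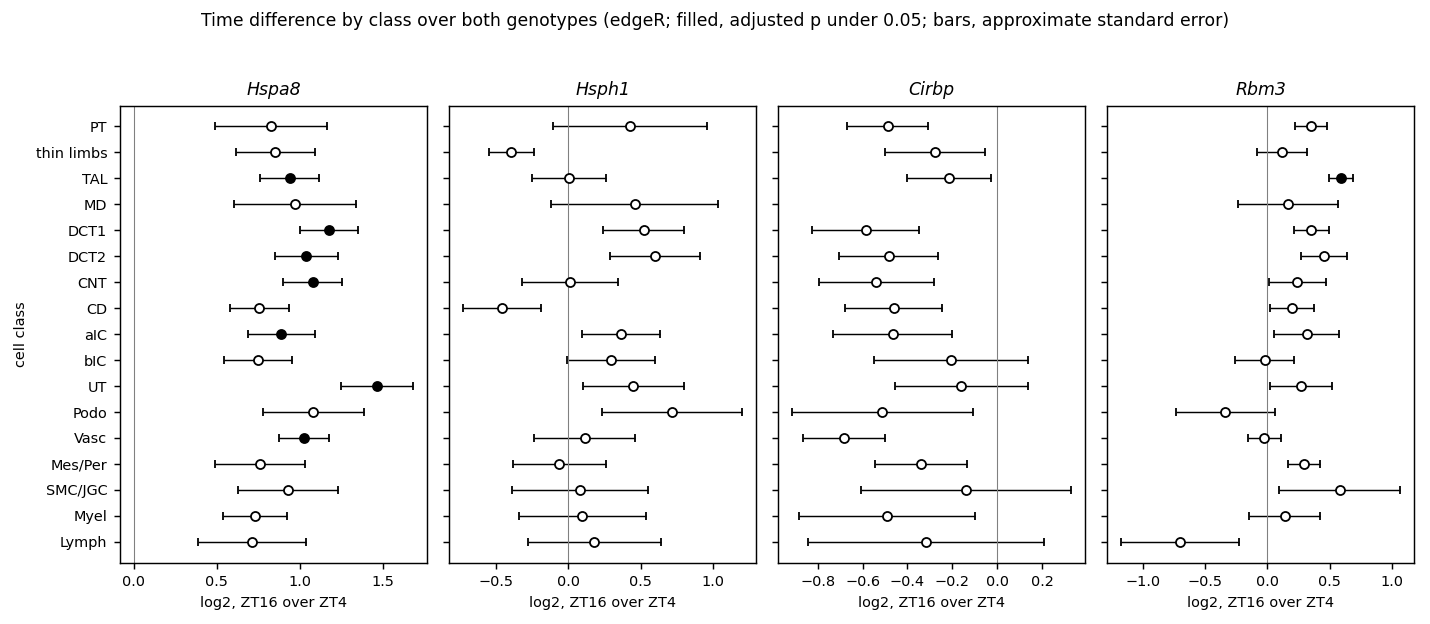
Log2 fold difference of ZT16 over ZT4 over both genotypes for Hspa8, Hsph1, Cirbp and Rbm3 (x axes) in each class (y axis), by edgeR, with bars for the approximate SE and filled points for an adjusted p under 0.05. Hspa8 lies above 0 in 17 of 17 classes, between 0.71 and 1.47, Cirbp lies below 0 in 16 of 16, and Rbm3 is filled in TAL. The classes come from the same mice and are not independent.

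Between genotypes, none of the 146 pairs of gene and class passed over both time points by edgeR (0.477% of all pairs) or by DESeq2 (0.567%), and 19 had an unadjusted p under 0.05 (6.58% of all pairs). Hspa1a lay above 0 in cKOt in 10 of 10 classes tested, with a median of 1.25 on the log2 scale, and Hspa8 in 8 of 17 with a median of -0.01. These medians were 0.41 and -0.36 without replicate 1 of cKOt ZT4. Fits without replicate 2 of cKOt ZT4 keep the library in which the heat shock genes read high. More pairs then pass the filter on low counts, through that library alone, so counts from these fits are a description. Without replicate 2 of cKOt ZT4, 4 pairs passed, against 0.521% of all pairs. At ZT4 alone none of 137 pairs passed by edgeR (0.237% of all pairs), with 36 at an unadjusted p under 0.05 (5.96%), and without replicate 2 of cKOt ZT4 12 of 157 passed (0.230%), all higher in cKOt, Hspa1a in PT, Vasc and Mes/Per, Hsph1 in 5 classes and Hsp90aa1 in 4. With replicate 1 left out instead, none of 141 pairs passed (0.145%), 6 had an unadjusted p under 0.05 (5.26%), and the median of the log2 differences was -0.10, against 0.36 with all libraries. None of 146 pairs passed for the interaction (edgeR, 0.0231% of all pairs, 23 at an unadjusted p under 0.05, as had 4.23% of all pairs), and without replicate 2 of cKOt ZT4 1 of 160 passed, Hsph1 in DCT2 (0.0277%), with 70 at an unadjusted p under 0.05 (5.95%). With replicate 1 left out instead, none of 147 passed (0.0195%), 7 had an unadjusted p under 0.05 (4.40%), and the median interaction was -0.06, against -0.51 with all libraries.

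The time difference in tubule nuclei, where Cre is induced, was also compared with that in the other nuclei of the same libraries. None of the 10 genes differed by edgeR (0.556% of all mRNAs called) or DESeq2 (129 of 16008 mRNAs called), and by edgeR 1 (Rbm3) had an unadjusted p under 0.05 (11.6% of all mRNAs). The tubule minus other difference was 0.23 ± 0.10 for Rbm3 and -0.07 ± 0.10 for Hspa8 on the log2 scale. The genotype difference did not pass in tubule against other nuclei for any of the 10 either by edgeR (0.500%), with 2, Hsph1 (-0.48 ± 0.14) and Hspd1, at an unadjusted p under 0.05 (8.58%), nor did the interaction (0.0625%), with 2, Hsph1 (0.93 ± 0.28) and Cirbp, under it (5.72%). With replicate 1 of cKOt ZT4 left out, none of the 10 passed in any of these 3 comparisons by edgeR (1.53%, 0.610% and 0.172% of all mRNAs called). For the time difference Hspd1 (0.23 ± 0.08) and no longer Rbm3 then had an unadjusted p under 0.05 (14.2% of all mRNAs), for the genotype difference Hsph1, Hspd1, Hspe1 and Hspa8 had (8.94%), and for the interaction Hsph1, Hspe1 and Hspd1 but not Cirbp (6.81%).

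Over the 8 libraries the heat shock genes moved together, and Cirbp moved opposite to them. Pearson's r of log2 CPM over the 28 pairs of heat shock genes had a median of 0.84 and ranged from 0.42 to 0.98. Over the 7 libraries without replicate 1 of cKOt ZT4 the median was 0.78 and the range 0.32 to 0.97. Cirbp had a median r of -0.76 with the 8 heat shock genes, or -0.82 without that library, and Rbm3 one of 0.18, or 0.60 without it. The points are 8 libraries of 4 groups, so these values describe them and carry no test. No r of pairs of other mRNAs is given beside them. Of 11870 mRNAs with at least 100 counts in every library, the one most like Dnajb1 was Ahsa1 (r = 0.992), which encodes an activator of HSP90. Smu1 (r = 0.982) and Zc3h15 (r = 0.977) came next, on no list. Hspd1 had Nepro (r = 0.985), then Dnaja1, a J-domain protein (r = 0.985), and Cct8, a TRiC subunit (r = 0.981). Hspe1 had Tspan31 (r = 0.956), then Hsp90ab1 (r = 0.954) and Abhd2 (r = 0.954), the last on no list. The first for the others were Eif2s1 for Hspa1a (r = 0.992), Plekhg3 for Hspa1b (r = 0.979), Pik3c2a for Hsph1 (r = 0.985), Ccdc117 for Hsp90aa1 (r = 0.986), Ctif for Hspa8 (r = 0.990), Tex9 for Cirbp (r = 0.989) and Unc45b for Rbm3 (r = 0.981). None of them is on a list of chaperones used here, nor are those at ranks 2 and 3. Over the 7 libraries without replicate 1 of cKOt ZT4 the r of the genes named here lay between 0.946 (Tspan31 with Hspe1) and 0.995 (Ahsa1 with Dnajb1), and the genes most like each member were not sought again.

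The other genes of the pathway were counted on fixed lists. Between time points over both genotypes, none of 3 heat shock factors, 13 other HSP70, HSP110 and J-domain proteins, 9 genes of HSP90B and its co-chaperones, 4 nucleotide exchange factors, 5 small heat shock proteins, 7 other mitochondrial chaperones and proteases and 8 TRiC subunits passed by edgeR (0.544% of all mRNAs called), and Hspb1 alone of them passed by DESeq2 (3.13%). Hsf1, which encodes the main heat shock factor, read 25.3 to 35.0 CPM over the 8 libraries. Of 13 endoplasmic reticulum chaperones, which fold secreted and membrane proteins and answer to the unfolded protein response rather than to HSF1, 7 rose at ZT16 by edgeR, against the same 0.544%. The median log2 difference over the 13 was 1.05, or 1.04 without replicate 1 of cKOt ZT4, where the 8 heat shock genes had 0.20 and 0.68, and within Ctrl the medians were 0.80 and 0.82. The difference between the lists was not tested. Among them Pdia6, a disulfide isomerase, read 29.7 to 37.7 CPM in the ZT4 libraries and 58.6 to 94.2 CPM in the ZT16 libraries, which did not overlap (1.07 ± 0.12, edgeR, adjusted p = 0.0162). Creld2 rose by 1.46 ± 0.23, Sdf2l1 by 1.84 ± 0.27, and the calcium-binding chaperone Calr by 0.99 ± 0.15 on the log2 scale. In replicate 1 of cKOt ZT4 Pdia6 read 30.2 CPM, within the ZT4 range, and 5 of the 13 passed without that library (1.00% of all mRNAs), Pdia6 and Calr among them but not Creld2 and Sdf2l1. Each of these 4 genes lost its call with at least 1 library left out, with adjusted p up to 0.0555 for Pdia6, 0.121 for Calr, 0.129 for Creld2 and 0.111 for Sdf2l1. Replicate 1 of cKOt ZT16 stood apart for the list, with a summed level of 1544 CPM against 932 to 950 CPM in the other ZT16 libraries.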

How the data were processed

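Nuclei of 8 kidneys were sorted by DAPI and sequenced with 10x 3′ v3.1 chemistry. The authors made the files with bcl2fastq 2.20 and Cell Ranger 7.1.0 (submitters' processing notes, which also name Seurat 5 and GRCm39, whereas the methods name mm10), and deposited unnormalized UMI counts per gene and barcode. No source used here says whether introns or strand were counted.

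From these, 81391 of 82784 barcodes (98.3%) were retained, those with 500 or more genes, 800 or more UMIs and no more than 2% of UMIs from mitochondrial genes. Library pairs shared 18 to 42 barcodes. Depth was 36548873 to 54500820 UMIs per library, and each of the 10 genes had at least 123 UMIs in every library, whereas classes with few nuclei rest on few UMIs. Intervals from counts would cover counting error only. The p-values judge a difference against the spread between replicates, estimated over the 4 groups together. In that spread mouse and library preparation cannot be told apart. Scrublet, run in scanpy 1.11.5, scored doublets (expected 8%, marked 4458 nuclei, 5.48%) and kept. Seurat 5.3.0 clustered nuclei on mRNAs (2000 variable features without the genes described and listed chaperones, 1000 principal components, 20 neighbours, resolution 2.2). Of 49 clusters, 41 with 94.9% of nuclei were named by markers (a mean z over markers of 0.9 or more, 3 or more markers at 2-fold or more over other nuclei and seen in 10% of nuclei, under 50% doublets). This rule and the joining of clusters were set after the clusters were seen, and 17 classes with at least 10 nuclei in each library were compared. The methods' own cell types, made by hand, were not used here, so names may differ.

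UMIs were added up for each library, and for each class within a library, and these sums tested with edgeR 4.0.16 (quasi-likelihood, TMM, 1 model of 4 groups, at least 5 counts in both replicates of a compared group, Benjamini-Hochberg over mRNAs of a contrast, limit 0.05). Where a replicate was left out, the filter asked for 5 counts in the 1 library left of its group. The SE is the log2 difference over the square root of F. The study's own tool, DESeq2 (1.42.0 here), was an alternative, as were other size factors, no filter, doublets left out, 50 principal components, equal cell composition, a replicate block and each library left out in turn. Equal cell composition covered the 17 compared classes only, without adipocytes and unnamed nuclei. In simulated data edgeR recovered 98% of 200 genes changed 1 log2 unit between time points over both genotypes (15805 genes run, 7.98% of calls false), and 75.5% in Ctrl alone (15760 genes, 9.58% false). DESeq2 recovered 97.5% and 86%, with 16.7% and 19.2% of calls false. The simulation drew genes at random and held no library that stood apart for a set of genes. Its shares are thus not the power for the 10 genes. Replicates differed beyond counting noise (chi-square per degree of freedom 35.6 to 62.9).

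Named were the 10 genes, Arntl, up to 5 called genes per contrast from fixed lists of chaperones, immediate early genes and adipocyte markers, and the mRNA most correlated with each gene. The mRNAs at ranks 2 and 3 were named for Dnajb1, Hspd1 and Hspe1 only. Hspb1, Hsf1, Hsp90ab1 and Clpx were named after their values were seen. The genes and lists were chosen with earlier results of these data known. Python 3.11.15 with numpy 2.4.6, pandas 2.3.3 and scipy 1.17.1 and R 4.3.3 were used.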

Additional observations from a re-analysis of the deposited data

How the results depend on the processing

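With each library left out in turn, the number of the 10 genes called in all nuclei stayed at 0 in the contrasts of time in Ctrl, time in cKOt, genotype at ZT16 and interaction, and ranged from 0 to 3 for genotype at ZT4 (3 without replicate 2 of cKOt ZT4), from 0 to 1 for genotype over both time points (Hspa1a, also without replicate 2 of cKOt ZT4) and from 0 to 1 for time over both genotypes (1 without replicate 1 of cKOt ZT4). Pairs of gene and class called ranged from 5 to 18 for time (5 without replicate 1 of cKOt ZT16) and from 0 to 4 for genotype over both time points (4 without replicate 2 of cKOt ZT4, which also gave 12 pairs at ZT4 and 1 for the interaction). With no filter on low counts 18 pairs were called for time and 8 for genotype (1.54% and 0.802% of all pairs), against 9 and 0 (0.890% and 0.477%), and the cause was not tested. DESeq2, other size factors, library totals and equal cell composition, where run, called none of the 10 genes in all nuclei, though DESeq2 called 3.13% of all mRNAs between time points over both genotypes where edgeR called 0.544%. Of the named calls, Hspa8 in aIC (adjusted p = 0.406) and Hspd1 in DCT1 (adjusted p = 0.247) were lost with DESeq2, and 1 or more libraries left out ended the call of Hspa8 in TAL, aIC and UT and of Hspd1 in DCT1 but not of Rbm3 in TAL or of Hspa8 in Vasc, DCT1, DCT2 and CNT. The first class in the order of levels stayed for 8 of 10 genes with doublets left out or 50 principal components, 9 in Ctrl libraries and 6 in cKOt libraries. The replicate block called 0 of the 10 genes in each contrast of all nuclei, as without it. Of all mRNAs it called from 0 of 16351 (interaction) to 151 of 16351 (genotype over both time points). By class it called 9 pairs for time and 0 for genotype, the same counts as without it. Of all pairs it called 1.10% and 0.517%, against 0.890% and 0.477% without it. Deviations of same-numbered libraries from their group means correlated at -0.29 to 0.50 over the 6 pairs of groups, at 0.48 and 0.50 between the genotypes within ZT4 and within ZT16. No label ties the numbers to a shared litter, batch or day, so they were not taken to pair the mice, although a pairing within a time point was not excluded. In the comparison of tubule with other nuclei the library is already the block, and no replicate block could be added. No result of those run changed sign while called, but values called in 1 fit did turn in another. At ZT4 cKOt over Ctrl was 2.27 for Dnajb1 and 1.57 for Hsp90aa1 on the log2 scale without replicate 2 of cKOt ZT4. Without replicate 1 instead, these were -0.46 and -0.11. With 2 mice per group and 1 library apart, the SE of Hsph1, Hspa1a, Hspa1b and Dnajb1 between time points over both genotypes was 0.39 to 0.48 on the log2 scale, and Hspa8, at 0.86 ± 0.28, was not called, so differences well above 1 SE also missed the limit.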

Other observations

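Beyond the heat shock genes, the lists held 2 further patterns. Of 5 adipocyte markers, 2 were higher in cKOt than in Ctrl at ZT4 by edgeR (0.446% of all mRNAs called): Ucp1, the uncoupling protein of brown fat, read 0.0970 and 0.0481 CPM in Ctrl and 1.88 and 9.83 CPM in cKOt at ZT4 (adjusted p = 0.0377), and Cidea rose by 2.96 ± 0.41 on the log2 scale (adjusted p = 0.0239). Both missed the limit by edgeR with equal cell composition (adjusted p = 0.0970 and 0.132), a setting that drops the adipocyte class and the unnamed nuclei. They also missed it with single libraries left out. Over all 17 alternatives run Ucp1 stayed at 4.70 or more and Cidea at 1.80 or more on the log2 scale. By DESeq2 all 5 markers were called higher in cKOt at ZT4 (2.13% of all mRNAs called). Ucp1 and Adipoq passed the filter on low counts there only through the cKOt ZT4 group, where they are high. Their calls at ZT4 are thus a description. The adipocyte class held 20 and 35 nuclei in the cKOt ZT4 libraries and 0 to 3 in each of the others. At ZT16 Ucp1 was at or under 0.0425 CPM in all 4 libraries. Of 10 immediate early genes none passed between time points or genotypes in all nuclei by edgeR.

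Clpx, which encodes the ATPase of a mitochondrial protease, read 133 and 141 CPM at Ctrl ZT4, 261 and 436 CPM at cKOt ZT4, 308 and 233 CPM at Ctrl ZT16, and 328 and 298 CPM at cKOt ZT16. With all libraries it was called higher in cKOt at ZT4 by DESeq2 (2.13% of all mRNAs called) but not by edgeR (0.446%). Without replicate 1 of cKOt ZT4 the difference was 1.67 ± 0.18 on the log2 scale by edgeR. That replicate was the lower of the 2 for Clpx, so leaving it out by itself raises this value. DESeq2 also called it higher in cKOt over both time points and higher at ZT16 in Ctrl.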
